A study of Bos taurus with 8 samples.

Results

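Homeobox genes encode transcription factors that set the identity of body regions and organs in the embryo. The genes examined here were those whose symbol begins with HOXA to HOXD, TLX, VSX, OTX, DLX, PITX, MSX, IRX, LHX, PAX or POU1F to POU6F followed by a number, together with SIX3 and its numbered relatives, and with LHX8 left out. This rule gave 99 genes among the 26804 genes of the table, of which 39 were HOX genes and 60 belonged to the other families. The HOX genes were 11 of cluster A, 10 of cluster B, 9 of cluster C and 9 of cluster D.

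HOX genes lie in clusters along the chromosome, and in vertebrate embryos genes of low paralog number are switched on earlier and further forward than genes of high number. In cells where HOX and many other homeobox genes are silent, Polycomb complexes hold them in repressed chromatin. Their role in the oocyte is less clear, apart from POU5F1 (OCT4), a pluripotency factor whose maternal transcript is long known in oocytes. Not every gene of these families encodes a complete homeodomain, since some PAX proteins carry mainly a paired domain.

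The libraries came from germinal vesicle oocytes of dry, multiparous Bos taurus beef cows (Angus in the labels), stripped of cumulus cells after ultrasound-guided aspiration. There were 4 summer libraries (A, B, C and E) and 4 winter libraries (A, B, D and E). All cows in both seasons had been synchronised with a progesterone device (CIDR) and stimulated with FSH, and RNA from 2 cows was combined in each library. The same cows were sampled in both seasons. The study's methods say that a failed summer replicate was dropped together with its winter counterpart. Yet C remains in summer alone and D in winter alone, and no source used here says whether libraries of the same letter share cows. The libraries were therefore compared unpaired in the main fit, and with the letter as a block in a further fit. Each season was collected in 1 session, and the effects of season and of session cannot be told apart. The study kept only oocytes of grade 1 and grade 2. It reports that grade 1 made up a smaller share of the oocytes recovered in summer, and grade 2 a larger share. The grades in each library are not stated, so an effect of grade cannot be told apart from season either. The p-values measure the spread between these pools. Values were TPM, the share of a library's transcripts that a gene takes after correction for gene length, which keeps no sequencing depth, so the counting error behind each value is unknown. The number of genes above 0 was 14477 to 16448 in the summer libraries and 15656 to 16374 in the winter libraries.

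The cell type label was checked against marker genes. All 19 oocyte markers in the table were above 0 in all 8 libraries, and their summed level was 17223 to 20099 TPM in summer and 5384 to 12658 TPM in winter. The sums did not overlap between the seasons, and 16 of the 19 were called higher in summer (limma, adjusted p under 0.05 and at least 2-fold). Markers of cumulus and granulosa cells summed to 7862 to 11400 TPM in summer and 9183 to 36763 TPM in winter, where winter E held the highest sum and the lowest oocyte sum. Theca and stroma markers summed to 516 to 639 TPM in summer and 757 to 2721 TPM in winter. In bulk libraries fewer cells of a type and less RNA per cell cannot be told apart. Because TPM is a share of the whole library, differences were also computed with every library scaled to its oocyte marker sum, called the oocyte scale below.

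Of the homeobox genes, 47 of 99 reached a measurable level throughout at least 1 season. A level of at least 1 TPM in all 4 libraries of a season was reached by 19 of the 39 HOX genes, 19 in summer and 18 in winter, with HOXC5 passing in summer alone. Among the other families it was reached by 28 of 60 genes, 25 in each season and 22 in both. VSX1, DLX4 and POU3F2 passed in summer alone, and PAX8, IRX1 and IRX3 in winter alone. The share of homeobox genes that passed was 47.5%, against 48.3% of all genes. Within the group, 3 HOX genes (HOXA11, HOXB13 and HOXD12) and 3 others (PAX5, PAX7 and POU4F2) were listed at 0 in every library.

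The HOX genes that passed were concentrated at the low-number end of the clusters. Of the 27 genes in paralog groups 1 to 9, 18 passed, but only 1 of the 12 genes in groups 10 to 13 did. All members of groups 3, 4 and 7 passed, and neither member of group 2 did. By cluster, 5 of 11 HOXA genes, 3 of 10 HOXB genes, 6 of 9 HOXC genes and 5 of 9 HOXD genes passed. The exception at the high-number end was HOXC13, a regulator of hair and nail formation, which averaged 9.74 ± 2.22 TPM in summer and 4.85 ± 1.64 TPM in winter (SD, n = 4 each). Its neighbours in number were nearly silent. HOXC12 had 0, 0.271, 1.03 and 3.32 TPM in the summer libraries and was listed at 0 in all winter libraries, while HOXC11 was above 0 in 1 library only, at 0.145 TPM in winter E.

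**Figure D1:**
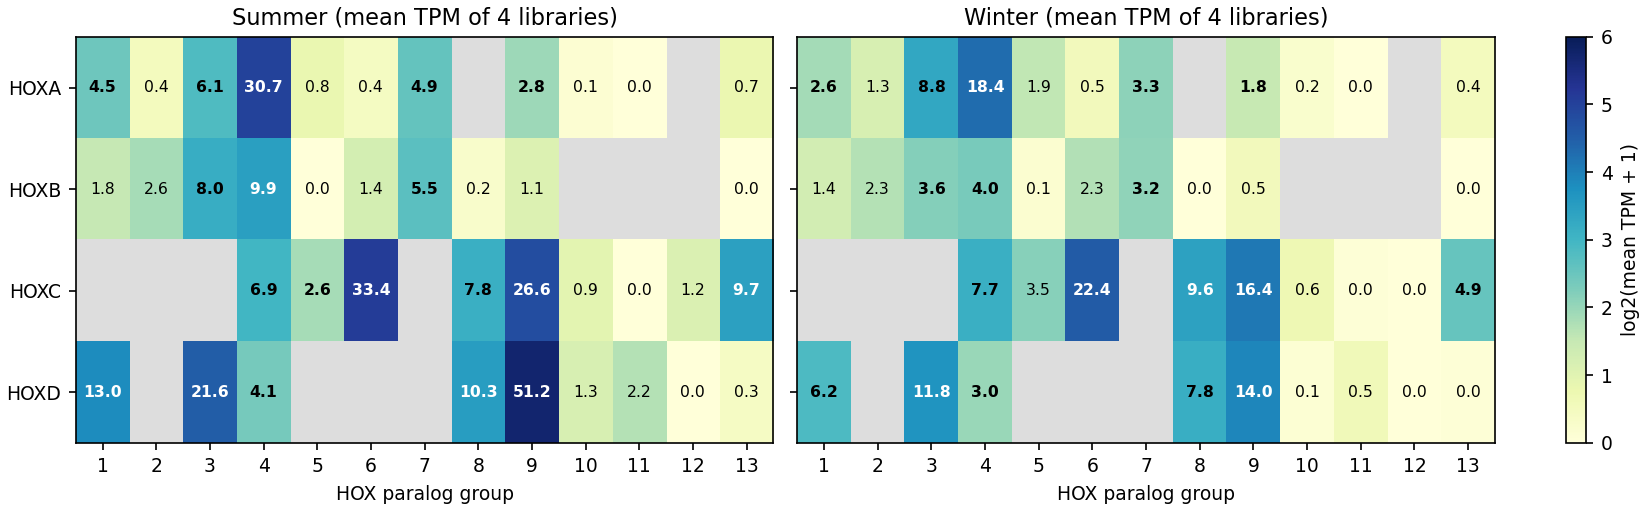
Mean TPM of the 39 HOX genes in summer (left) and winter (right), by cluster (rows) and paralog group (columns), with colour on a log2(mean TPM + 1) scale, grey where the table has no gene, and bold type where all 4 libraries of that season reached 1 TPM. Bold cells lie in groups 1 to 9 apart from HOXC13, and HOXD9 was the darkest cell in summer at 51.2 TPM.

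The same few genes made up most of the HOX signal. Only 7 HOX genes averaged 10 TPM or more in a season: HOXA4, HOXC6, HOXC9, HOXD1, HOXD3, HOXD8 and HOXD9. The summed HOX level was 232, 255, 365 and 249 TPM in summer A, B, C and E, against 178, 187, 152 and 144 TPM in winter A, B, D and E. The sums did not overlap, and summer C stood above the other summer libraries. Per 1000 TPM of oocyte markers the order was the other way, with a mean of 14.99 in summer and 20.01 in winter, and the values of the 2 seasons overlapped.

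HOXD was the cluster whose summed level differed most between the seasons, with 104 ± 28.2 TPM in summer and 43.4 ± 12.3 TPM in winter (SD, n = 4 each). HOXA summed to 51.4 ± 13.8 TPM in summer and 39.2 ± 8.81 TPM in winter, and HOXC to 89.1 ± 28.2 TPM in summer and 65.1 ± 8.77 TPM in winter. HOXB summed to 30.6 ± 8.09 TPM in summer and 17.5 ± 7.07 TPM in winter.

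Of the 39 HOX genes, 21 were expressed above the study's zFPKM limit in all libraries of a season and were tested. Of these, 3 were called higher in summer (HOXB3, HOXD1 and HOXD9) and none lower, at an adjusted p under 0.05 and a difference of at least 2-fold. Among all 13379 tested genes 4.40% were called higher and 5.17% lower. At an unadjusted p under 0.05, 8 HOX genes were higher and 0 lower in summer, where 21.9% of all tested genes were higher and 19.7% lower. On the oocyte scale 1 was higher and 3 were lower at that level, against 0.120% and 72.2% of all tested genes. The median HOX difference was 0.51 on the log2(TPM + 1) scale, against -0.03 over all tested genes, but it was -0.41 after scaling to the oocyte markers, which moved the median of all genes to -1.07. Relative to the median of all genes the HOX median was thus 0.54 higher on the TPM scale and 0.66 higher on the oocyte scale. The scaling multiplies all genes of a library by the same factor and so moves their differences by a similar amount. This gap therefore stays nearly the same by construction, and it cannot show whether the HOX difference outlasts the oocyte scaling.

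HOXD9, which takes part in patterning the trunk and limbs, had the largest difference of the HOX genes. It had 52.7, 33.4, 68.7 and 50.1 TPM in summer A, B, C and E, against 13.4, 21.6, 12.3 and 8.69 TPM in winter A, B, D and E. Every summer value lay above every winter value, and HOXD9 was the highest HOX gene in 3 of the 4 summer libraries. The difference was 1.82 ± 0.28 (SE) on the log2(TPM + 1) scale, with an adjusted p of 0.00470 in limma. It stayed called with any 1 library left out, at 1.64 to 2.04. Scaled to the oocyte markers it was 0.74 with an adjusted p of 0.0343, below the 2-fold limit but still positive. On that scale 72.2% of all tested genes were lower at an unadjusted p under 0.05, so the adjustment raises p-values little there. Per 1000 TPM of oocyte markers HOXD9 stood at 2.81 ± 0.957 in summer and 1.58 ± 0.109 in winter (SD, n = 4 each).

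Its neighbours on the HOXD cluster gave a mixed picture. HOXD8 averaged 10.3 ± 2.66 TPM in summer and 7.83 ± 2.39 TPM in winter (SD, n = 4 each), a difference of 0.36 ± 0.27 (SE, adjusted p = 0.324), which did not pass and was negative after oocyte scaling. HOXD10 was at 4.55 TPM in summer C and below 0.5 TPM in the other 7 libraries. HOXD11 was also highest in summer C, at 5.56 TPM, and reached at most 1.62 TPM elsewhere.

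HOXD1 and HOXB3, genes of the front end of the clusters, were nearer the limit. HOXD1 had 10.9, 13.4, 16.3 and 11.6 TPM in summer A, B, C and E, against 4.68, 12.9, 3.76 and 3.51 TPM in winter A, B, D and E. Winter B fell within the summer range, so the seasons overlapped. The difference was 1.12 ± 0.35 (SE, adjusted p = 0.0397), and without winter B it was 1.49. HOXD1 was no longer called without summer B, C or E or without winter A, D or E (adjusted p up to 0.105), and its difference was 0.12 on the oocyte scale.

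HOXB3 had 7.73, 6.71, 10.4 and 7.35 TPM in summer A, B, C and E, against 3.70, 3.61, 5.12 and 1.95 TPM in winter A, B, D and E. The seasons did not overlap, and the difference was 1.01 ± 0.28 (SE, adjusted p = 0.0251). It was not called without summer B (1.08), summer C (0.89), summer E (1.04) or winter E (0.81), and it was 0.06 on the oocyte scale. HOXB3 overlaps HOXB4, HOXB5 and HOXB6 in the RefSeq annotation (ARS-UCD2.0), so reads may be shared between these genes. HOXB4 averaged 9.89 ± 4.83 TPM in summer and 4.02 ± 1.58 TPM in winter (SD, n = 4 each). Its difference of 1.02 ± 0.42 (SE) did not pass (adjusted p = 0.0912), and it was 0.07 on the oocyte scale.

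HOXC13 passed the adjusted p but not the 2-fold limit. It had 10.4, 12.3, 9.18 and 7.03 TPM in summer A, B, C and E, against 5.27, 6.99, 3.36 and 3.79 TPM in winter A, B, D and E. Summer E and winter B almost met, and the difference was 0.89 ± 0.27 (SE, adjusted p = 0.0357), with -0.09 on the oocyte scale.

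HOX genes whose summer values all lay above the winter values numbered 4 of 21 (HOXB3, HOXC13, HOXD3 and HOXD9), where 15.4% of all tested genes did so. None lay wholly below, against 14.1% of all tested genes. HOXD3 only just qualified, since its lowest summer value and its highest winter value were both 15.7 TPM. It averaged 21.6 ± 9.31 TPM in summer and 11.8 ± 2.91 TPM in winter (SD, n = 4 each), did not pass the test (0.78 ± 0.28 SE, adjusted p = 0.0630; -0.29 on the oocyte scale), and overlaps HOXD4 in the annotation.

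**Figure D2:**
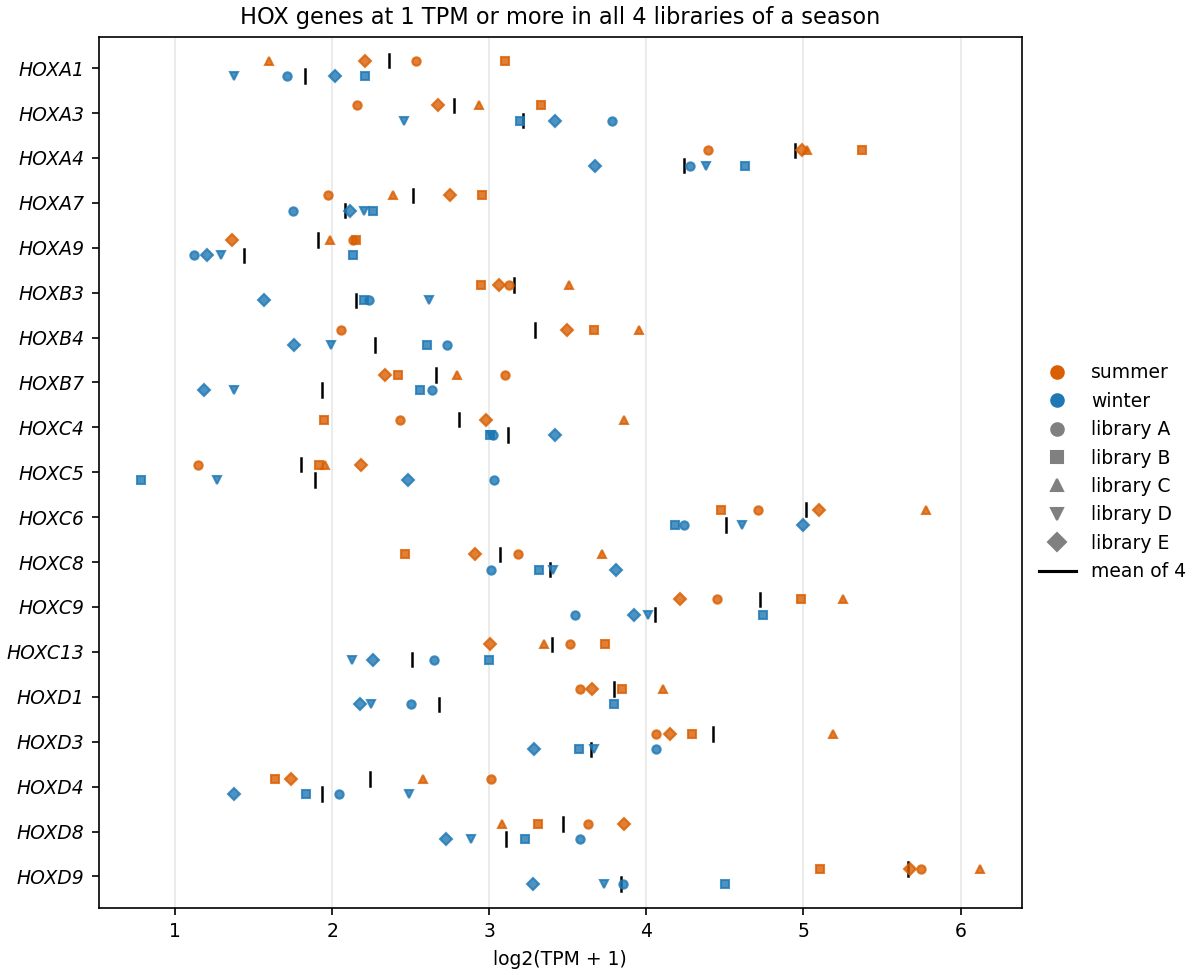
TPM of the 19 HOX genes that reached 1 TPM in all 4 libraries of a season, on a log2(TPM + 1) axis, with 1 symbol per library (shape gives the letter), summer above winter in each row, and a black tick at the mean of the 4 libraries. HOXD9 shows a wide gap between the seasons, whereas for HOXA3, HOXC4 and HOXC8 the summer and winter symbols mingle.

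The most abundant genes of the remaining clusters were present in every library, and none of them passed the test. HOXA4 had 19.98 to 40.5 TPM in summer and 11.8 to 23.7 TPM in winter (difference 0.71, adjusted p = 0.0658). HOXC6 had 21.2 to 54.0 TPM in summer and 17.1 to 31.0 TPM in winter (0.51, adjusted p = 0.211), and HOXC9 17.6 to 37.0 TPM in summer and 10.7 to 25.7 TPM in winter (0.67, adjusted p = 0.116). All 3 genes had positive differences on the TPM scale and negative ones on the oocyte scale, of -0.39, -0.59 and -0.41. The differences of HOXA7 (0.43) and HOXB7 (0.73) did not pass and turned negative on the oocyte scale, at -0.49 and -0.13.

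Differences below 0 on both scales were seen for HOXA3, HOXC4, HOXC5 and HOXC8. HOXC8 had 4.50 to 12.2 TPM in summer and 7.05 to 12.99 TPM in winter, and HOXA3 3.47 to 9.04 TPM in summer and 4.50 to 12.7 TPM in winter. None of the 4 passed on the TPM scale. On the oocyte scale HOXA3, HOXC4 and HOXC8 were called lower in summer, as were 53.2% of all tested genes.

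The 60 genes of the other families were dominated by 1 gene. MSX1, a repressor in craniofacial and limb development that in mouse also promotes entry of fetal germ cells into meiosis, was the highest homeobox gene of the group in all 8 libraries. It made up 65.4% ± 3.36 of the summed TPM of the other families in summer and 57.5% ± 5.52 in winter (SD, n = 4 each). LHX2 ranked next in all 8 libraries, and MSX1 and LHX2 were the only genes of the group to average 100 TPM or more in a season. POU5F1 ranked between the third and the fifth place in every library.

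Of the 60 genes, 29 were tested. Called higher in summer were 7, among them LHX2, LHX3, MSX1, SIX3, TLX3 and VSX1, and called lower were 2, among them PAX8, to be read against the 4.40% and 5.17% of all tested genes. Over HOX and other families together, 10 of the 50 tested genes were called higher and 2 lower. The study itself lists TLX3 and VSX1 among the oocyte genes most raised in summer, from these same libraries, so these counts are not independent of its list. With the library letter as a block in the limma fit, HOXD9 alone was called higher and PAX8 alone lower, against 1.34% and 2.21% of all tested genes, and MSX1, TLX3 and VSX1 had adjusted p-values of 0.0598, 0.0569 and 0.0771. Only letters A, B and E occur in both seasons, so the season differences of that fit rest on those libraries alone. The median difference of the other families was 0.90 on the log2(TPM + 1) scale and -0.13 on the oocyte scale. Relative to the median of all genes it was 0.93 higher on the TPM scale and 0.94 higher on the oocyte scale. These gaps are alike by construction, since the scaling moves the differences of all genes by a similar amount. Of the 50 tested genes, 45 were expressed in both seasons, POU3F2 in summer alone, and HOXB1, HOXB2, IRX1 and IRX3 in winter alone. The last 5 entered the test through 1 season only.

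MSX1 had 713, 1240.2, 1099.8 and 1125 TPM in summer A, B, C and E, against 541, 584, 297 and 364 TPM in winter A, B, D and E. The seasons did not overlap. The difference was 1.25 ± 0.24 (SE, adjusted p = 0.00762) and stayed called with any 1 library left out. Per 1000 TPM of oocyte markers MSX1 stood at 56.2 ± 11.1 in summer and 52.5 ± 13.1 in winter (SD, n = 4 each), and the scaled difference was 0.11.

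MSX2, its close relative, had 20.8, 51.1, 41.2 and 63.3 TPM in summer A, B, C and E, against 27.1, 27.6, 3.66 and 14.4 TPM in winter A, B, D and E. Summer A lay below winter A and B. The difference of 1.44 ± 0.55 (SE) did not pass (adjusted p = 0.0731). It was 0.86 without winter D and 0.36 on the oocyte scale. MSX2 passed without summer A (1.75) or winter B (1.73).

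LHX2 is a LIM-homeodomain factor of eye, forebrain and hair follicle. It had 95.8, 89.4, 110.3 and 114 TPM in summer A, B, C and E, against 48.2, 60.6, 49.1 and 38.1 TPM in winter A, B, D and E. The values within a season were close and the seasons did not overlap. The difference was 1.06 ± 0.16 (SE, adjusted p = 0.00458), but -0.06 on the oocyte scale, where it was the only one of the 10 genes called higher to change sign. Without winter E it was 0.95 and missed the 2-fold limit.

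LHX3, needed for the pituitary and for motor neurons, had 6.23, 7.73, 9.33 and 10.4 TPM in summer A, B, C and E, against 1.12, 5.36, 1.69 and 4.98 TPM in winter A, B, D and E. The winter libraries fell into a low pair (A and D) and a high pair (B and E), all below summer. The difference was 1.27 ± 0.38 (SE, adjusted p = 0.0336), and 0.35 on the oocyte scale. It was not called without summer B, C or E or winter A or D (as low as 0.99, adjusted p up to 0.0904). LHX4, which acts beside LHX3 in the pituitary, averaged 8.41 ± 1.28 TPM in summer and 5.30 ± 2.27 TPM in winter (SD, n = 4 each) and did not pass (0.66 ± 0.32 SE, adjusted p = 0.141; -0.32 on the oocyte scale).

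TLX3 and VSX1 are known from neurons. TLX3 selects the excitatory fate in the dorsal spinal cord, and VSX1 acts in bipolar cells of the retina. TLX3 had 8.11, 7.48, 17.7 and 6.30 TPM in summer A, B, C and E, against 2.80, 1.68, 2.10 and 1.91 TPM in winter A, B, D and E. Summer C stood far above the other summer libraries, and the seasons did not overlap. The difference was 1.71 ± 0.32 (SE, adjusted p = 0.00690), and 1.42 without summer C, still called.

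VSX1 had 7.32, 3.84, 4.94 and 6.60 TPM in summer A, B, C and E, against 1.11, 2.48, 0.669 and 0.671 TPM in winter A, B, D and E. The seasons did not overlap, and the difference was 1.62 ± 0.33 (SE, adjusted p = 0.00824). VSX1 stayed called with any 1 library left out. On the oocyte scale the differences of TLX3 (0.81) and VSX1 (0.89) stayed positive but below the 2-fold limit, with an adjusted p of 0.0821 for TLX3 and 0.0316 for VSX1. The adjustment raises p-values little on that scale, where 72.2% of all tested genes were lower at an unadjusted p under 0.05. The paralogs TLX1 and TLX2 stayed below 1 TPM in every library.

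SIX3, a gene of the forebrain and eye, had 8.67, 18.7, 22.1 and 20.1 TPM in summer A, B, C and E, against 8.35, 9.70, 5.37 and 4.74 TPM in winter A, B, D and E. Summer A lay between winter A and winter B. The difference was 1.17 ± 0.32 (SE, adjusted p = 0.0250). On the oocyte scale the difference of SIX3 was 0.14. SIX3 was not called without summer B, C or E or winter D or E (adjusted p up to 0.0710).

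SIX5, by contrast, was the most evenly expressed of the abundant members. It had 19.3 to 32.1 TPM in summer and 25.5 to 36.7 TPM in winter, with a difference of -0.22 ± 0.21 (SE, adjusted p = 0.444) and -1.32 on the oocyte scale, where it was called lower. It overlaps MEIOSIN, a regulator of meiotic entry, in the annotation, and reads of the 2 genes cannot be told apart here. SIX4 had 1.90 to 4.38 TPM in summer and 3.60 to 4.90 TPM in winter, and SIX2 and SIX6 stayed below 1 TPM in every library.

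**Figure D3:**
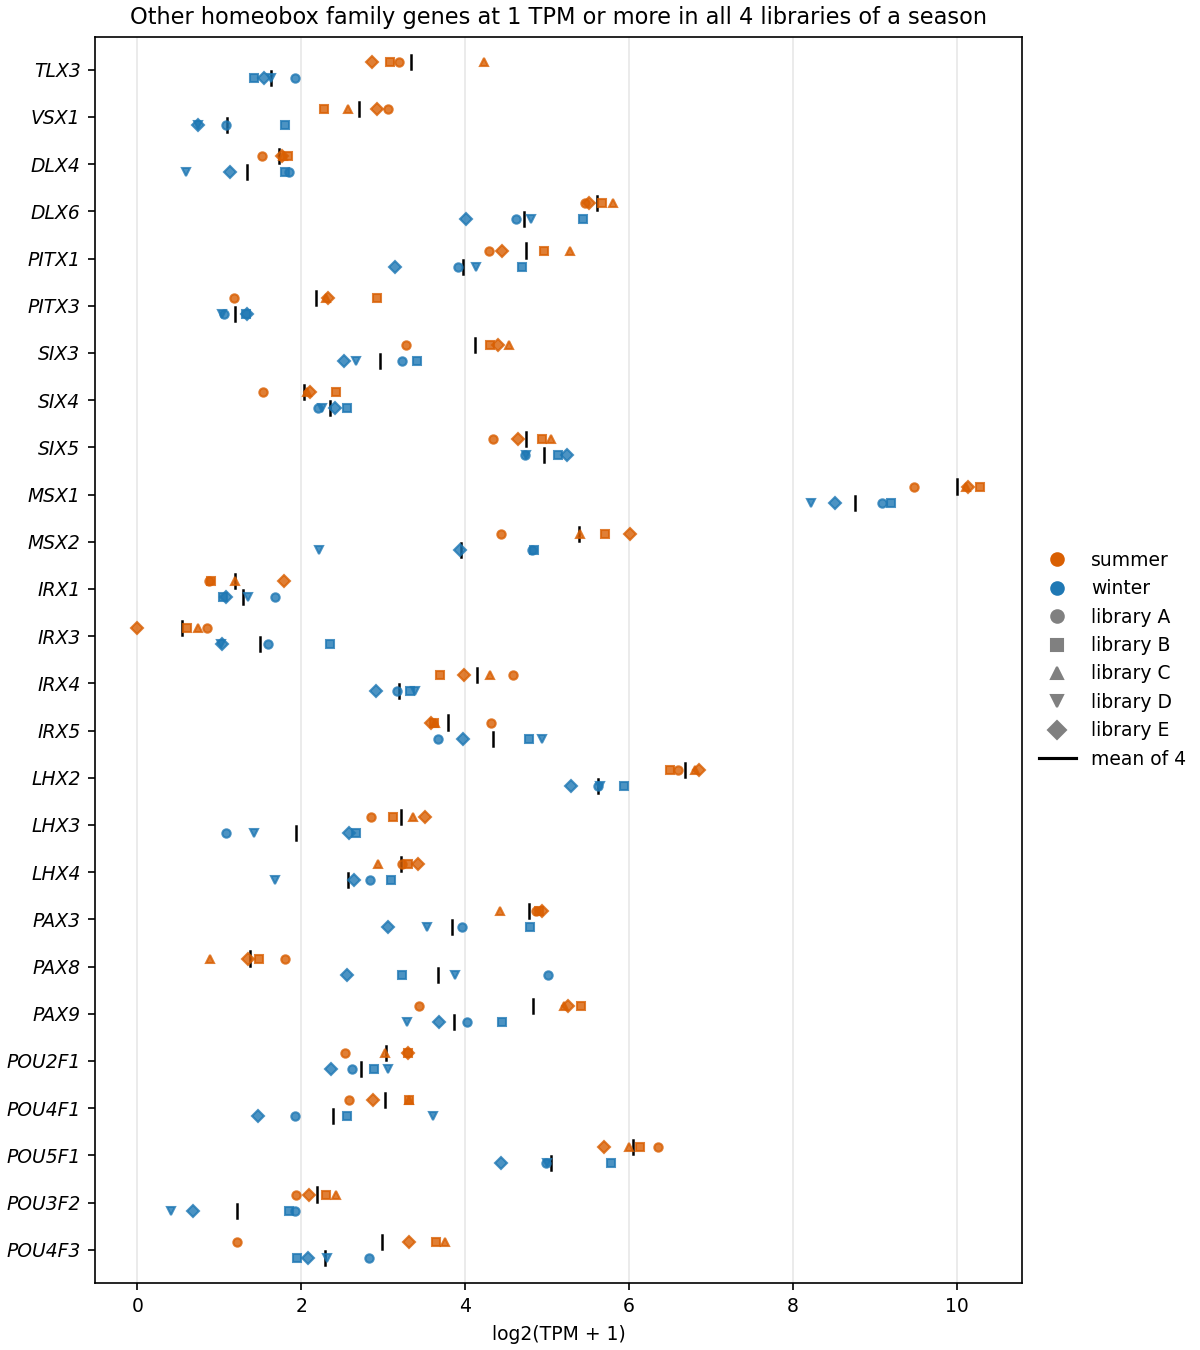
TPM of 26 of the 28 genes of the other families that reached 1 TPM in all 4 libraries of a season, on a log2(TPM + 1) axis, with 1 symbol per library (shape gives the letter), summer above winter in each row, and a black tick at the mean of the 4 libraries. MSX1 lies far to the right of all others, TLX3 and VSX1 show separate seasons, and PAX8 is the clearest case with winter to the right.

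PAX8, a factor of thyroid, kidney and the epithelium of the oviduct and uterus, had the largest difference of the 50 tested genes, and it was lower in summer. It had 2.48, 1.81, 0.855 and 1.54 TPM in summer A, B, C and E, against 31.3, 8.36, 13.7 and 4.88 TPM in winter A, B, D and E. The seasons did not overlap, and the winter libraries spread widely. The difference was -2.29 ± 0.47 (SE, adjusted p = 0.00868), and it was called with any 1 library left out, at -1.84 without winter A. On the oocyte scale it was -3.19.

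The summed level of markers of epithelial cells was also highest in winter A, though single markers went different ways. The 10 markers summed to 669, 398, 209 and 232 TPM in summer A, B, C and E, against 3934, 360, 1095 and 358 TPM in winter A, B, D and E. Winter A, with the most PAX8, also held 379 TPM of MSLN and 330 TPM of OVGP1, an oviduct glycoprotein, and both were below 1 TPM in each of the other 7 libraries. The order of the winter libraries was the same for PAX8 and for the epithelial sum, but winter B and E nearly tied in the sum. In winter D, KRT8 (746 TPM), KRT18 (197 TPM), CDH1 (102 TPM) and UPK3B (2.33 TPM) lay above every summer library. EPCAM (16.1 TPM), KRT19 (23.5 TPM), LRRN4 (6.83 TPM) and KRT7 (0 TPM) lay below every summer library there. Winter B and E had epithelial sums within the summer range and PAX8 levels above every summer library. Leukocyte markers, too, summed highest in winter A, at 709.5 TPM, of which CD74 gave 616 TPM. In the other libraries they summed to 41.4 to 199.6 TPM. The part of either cell type in the PAX8 level of winter A was not tested.

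PITX1, a gene of hindlimb and pituitary, had 18.5 to 37.8 TPM in summer and 7.88 to 25.0 TPM in winter, and did not pass (0.77 ± 0.33 SE, adjusted p = 0.105) and was -0.31 on the oocyte scale. PITX3 averaged 3.95 ± 2.17 TPM in summer and 1.29 ± 0.261 TPM in winter (SD, n = 4 each) and did not pass either (0.99 ± 0.37 SE, adjusted p = 0.0663; 0.22 on the oocyte scale).

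The IRX family, whose members pattern heart, nervous system and limbs, had genes with either sign. IRX4, a gene of the heart ventricle, had 23.0, 12.0, 18.8 and 14.9 TPM in summer A, B, C and E, against 8.02, 9.04, 9.43 and 6.51 TPM in winter A, B, D and E. The seasons did not overlap, and the difference of 0.95 ± 0.24 (SE, adjusted p = 0.0186) stopped short of 2-fold, with -0.10 on the oocyte scale. IRX3 had 0.799, 0.525, 0.675 and 0 TPM in summer A, B, C and E, against 2.01, 4.12, 1.03 and 1.05 TPM in winter A, B, D and E. All winter values of IRX3 lay above summer, but the difference did not pass (-0.95 ± 0.38 SE, adjusted p = 0.0822). IRX5 averaged 13.1 ± 3.84 TPM in summer and 20.7 ± 8.81 TPM in winter (SD, n = 4 each; -0.55, adjusted p = 0.202). IRX3 and IRX5 were called lower on the oocyte scale, where 53.2% of all genes were.

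POU5F1 had 80.8, 69.3, 63.0 and 50.9 TPM in summer A, B, C and E, against 30.8, 54.0, 30.9 and 20.7 TPM in winter A, B, D and E. Only summer E and winter B crossed. The difference was 0.99 ± 0.26 (SE, adjusted p = 0.0207), which is just under 2-fold, and -0.12 on the oocyte scale. Per 1000 TPM of oocyte markers POU5F1 stood at 3.57 ± 0.742 in summer and 3.84 ± 0.395 in winter (SD, n = 4 each). No POU gene was called. POU2F1 (OCT1), a widely expressed factor, was nearly level, with 7.41 ± 1.92 TPM in summer and 5.74 ± 1.40 TPM in winter (0.31, and -0.68 on the oocyte scale), whereas POU4F3, a gene of inner ear hair cells, had 1.33, 11.5, 12.5 and 8.98 TPM in summer A, B, C and E, against 6.11, 2.87, 3.96 and 3.24 TPM in winter A, B, D and E. Summer A was the lowest of all 8 libraries for POU4F3, and the difference of 0.69 (adjusted p = 0.330) was -0.26 on the oocyte scale.

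DLX6, a gene of jaw and forebrain development, was among the highest genes of the group, with 43.2, 49.96, 54.99 and 44.5 TPM in summer A, B, C and E, against 23.5, 42.4, 26.9 and 15.2 TPM in winter A, B, D and E. Winter B came close to the summer values without reaching them. The difference was 0.90 ± 0.26 (SE, adjusted p = 0.0301), under 2-fold, with -0.21 on the oocyte scale. DLX5, its neighbour in the annotation, stayed below 2 TPM in every library. PAX3, a gene of neural crest and muscle precursors, averaged 26.7 ± 4.27 TPM in summer and 14.8 ± 8.43 TPM in winter (SD, n = 4 each), and PAX9, a gene of teeth and thymus, 31.1 ± 14.4 TPM in summer and 14.2 ± 5.18 TPM in winter (SD, n = 4 each). Neither passed (adjusted p = 0.0555 for PAX3 and 0.112 for PAX9), and both were slightly negative on the oocyte scale, at -0.13 and -0.12. OTX1 and OTX2, forebrain genes of which OTX2 is also found in early embryos, did not reach 1 TPM throughout either season.

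Non-overlapping values were found for 9 of the 29 tested genes with summer above (among them MSX1, LHX2, LHX3, TLX3, VSX1, DLX6, IRX4 and POU3F2), against 15.4% of all tested genes, and for 3 with summer below (among them PAX8 and IRX3), against 14.1%. The 20 HOX genes that did not reach the 1 TPM limit had at most 7.27 TPM in any library.

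**Figure D4:**
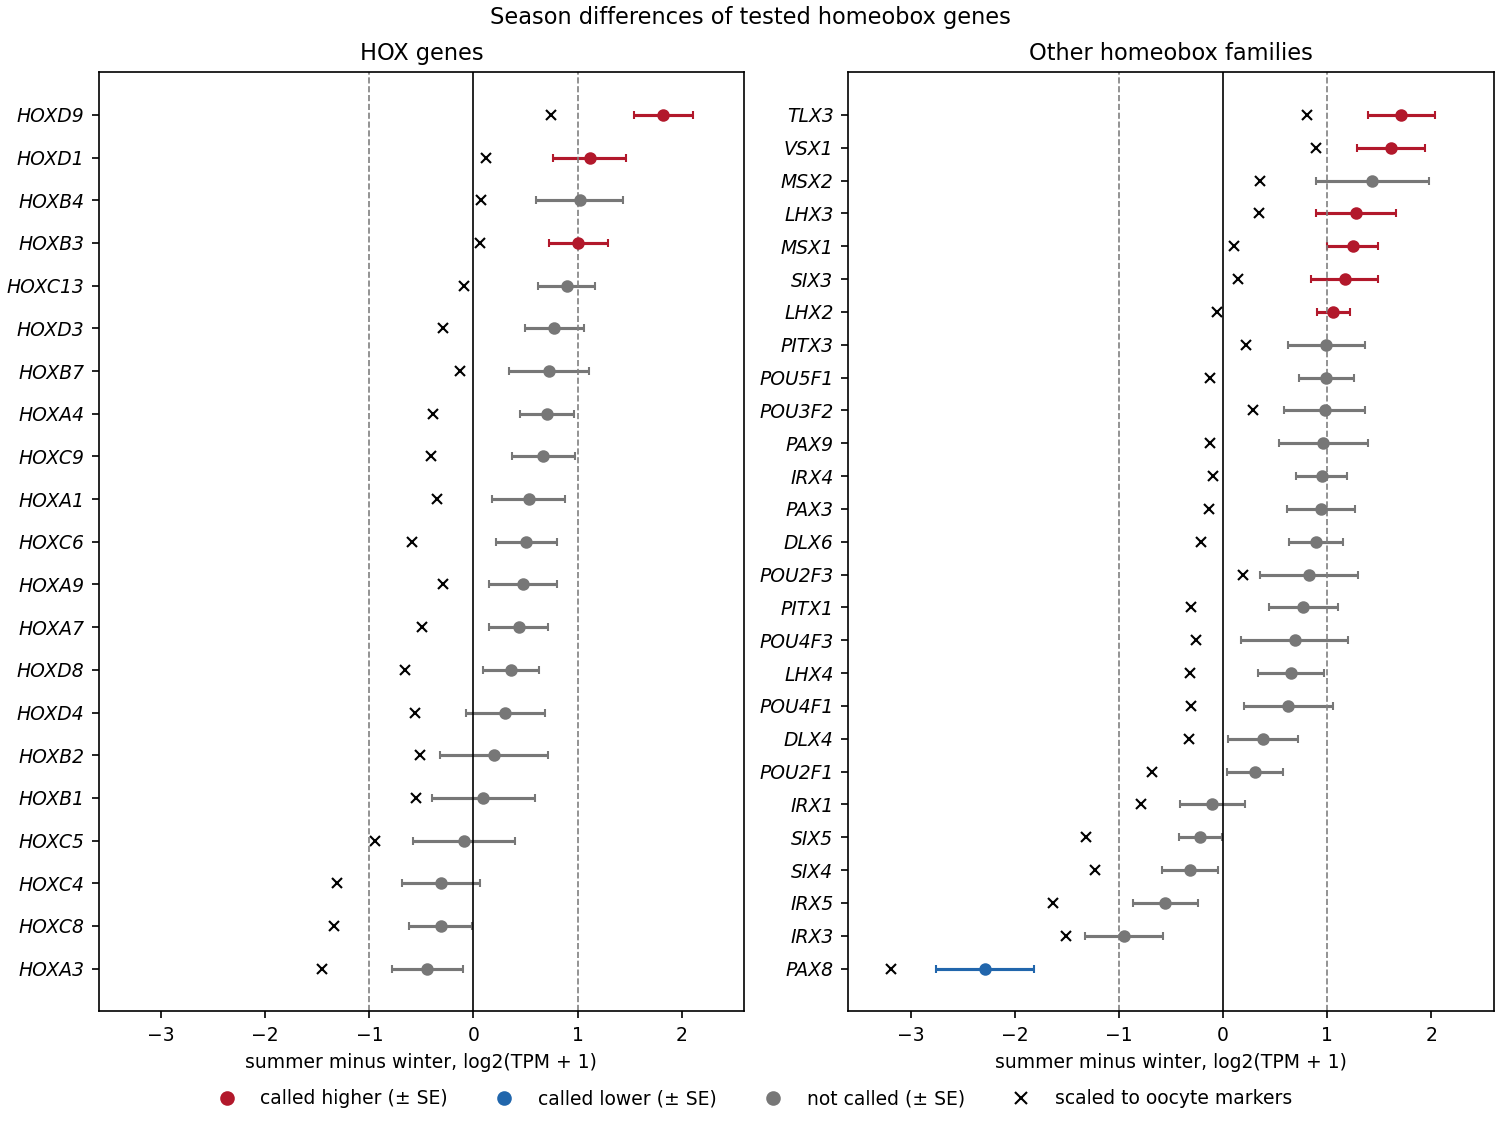
Summer minus winter differences of the 21 tested HOX genes (left) and 27 of the 29 tested genes of the other families (right) on the log2(TPM + 1) scale, as points with SE bars, red where called higher, blue where called lower and grey where not called; crosses give the same differences after scaling each library to its oocyte markers, and dashed lines mark 2-fold. The points lean to the positive side, most crosses of the HOX genes lie left of 0, and HOXD9, TLX3 and VSX1 keep the most positive crosses.

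After scaling to the oocyte markers no member of the HOX or other families was called higher in summer in limma (1 HOX gene and 1 other at an unadjusted p under 0.05), where 0.0523% of all genes were. Called lower were 9, among them HOXA3, HOXC4 and HOXC8, and IRX3, IRX5, PAX8, SIX4 and SIX5, where 53.2% of all genes were. Of the 10 called higher on the TPM scale, 9 remained positive.

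**Figure D5:**
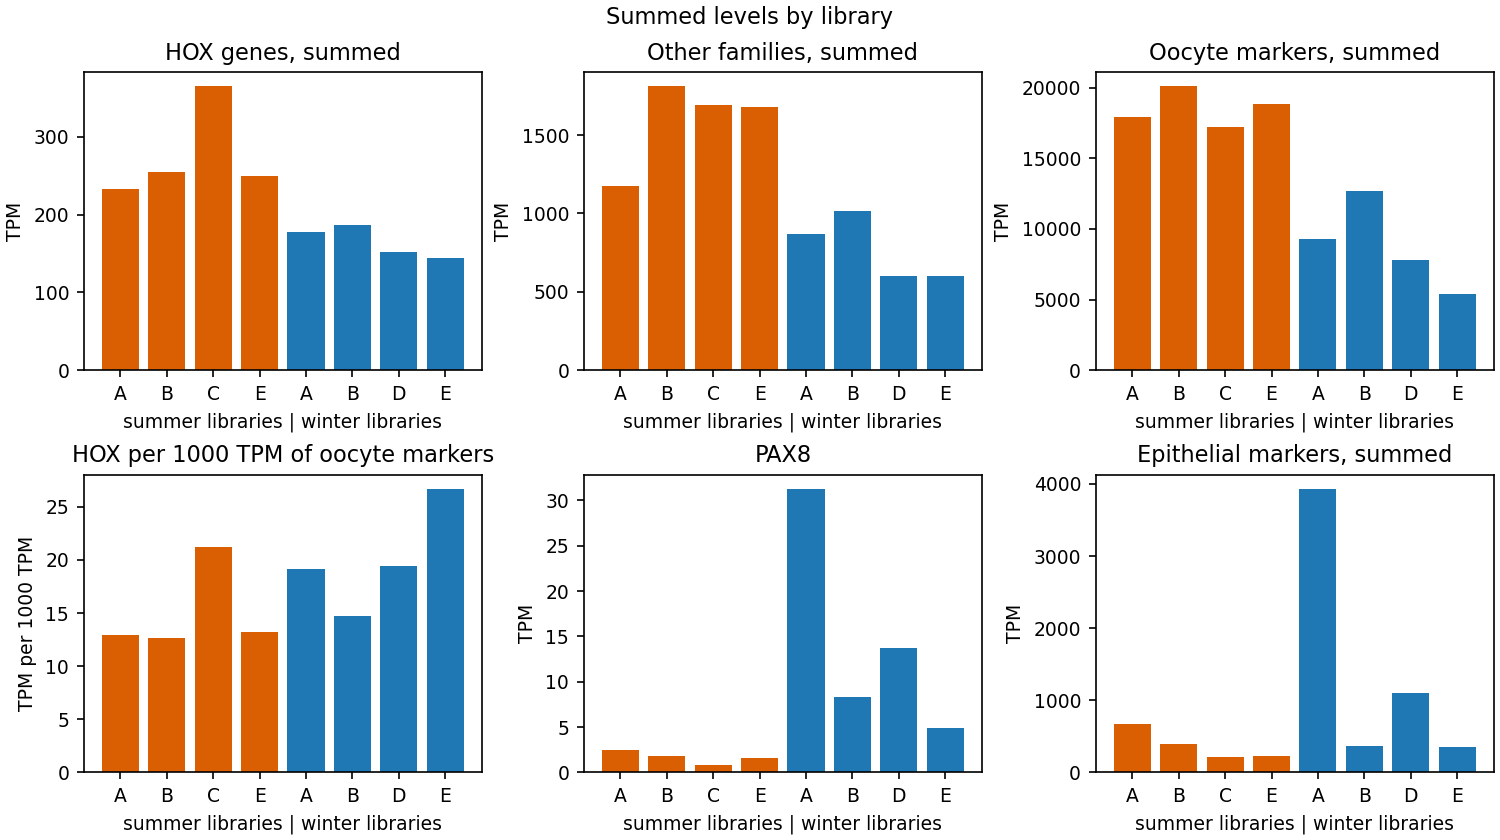
Summed TPM of the HOX genes, of the other families and of the oocyte markers (top row), and HOX TPM per 1000 TPM of oocyte markers, PAX8 TPM and summed TPM of epithelial markers (bottom row), with 1 bar per library, summer (orange) left of winter (blue). The summer bars of all 3 top panels exceed every winter bar, the HOX ratio does not separate the seasons, and winter A holds the tallest bar of both PAX8 and the epithelial markers.

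The summed level of the other families was 1173, 1810.3, 1691 and 1678 TPM in summer A, B, C and E, against 871, 1015, 598 and 601 TPM in winter A, B, D and E. Summer lay above winter throughout. Per 1000 TPM of oocyte markers the mean was 85.6 ± 14.2 in summer and 90.5 ± 15.9 in winter (SD, n = 4 each), and the seasons overlapped.

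Genes known to act on HOX genes or with homeobox proteins were examined next. CDX1 and CDX2, caudal-type homeobox factors that activate HOX genes in the trunk, were both called higher in summer. CDX2 had 46.9, 87.9, 90.4 and 63.8 TPM in summer A, B, C and E, against 19.8, 25.1, 28.9 and 23.1 TPM in winter A, B, D and E (difference 1.503, adjusted p = 0.00399), and CDX1 averaged 110 ± 21.5 TPM in summer and 43.8 ± 9.32 TPM in winter (SD, n = 4 each; 1.305, adjusted p = 0.00356). Scaled to the oocyte markers, the differences were 0.39 for CDX2 and 0.18 for CDX1, and neither was called. In the same list of 17 CDX and retinoic acid genes, of which 13 were tested, CYP26B1, an enzyme that degrades retinoic acid, and CRABP2, which carries retinoic acid to its receptors, were called lower. CYP26B1 had 0.440 to 0.602 TPM in summer and 1.71 to 28.2 TPM in winter (-2.99, adjusted p = 0.00844), and CRABP2 112 to 377 TPM in summer and 429 to 582 TPM in winter (-1.33, adjusted p = 0.0119). Called were thus 2 of 13 higher and 2 lower, where 4.40% and 5.17% of all tested genes were, and the list's median was 0.22. On the oocyte scale 0 were called higher and 6 lower, with a median of -0.86.

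Of the 29 tested genes of the Polycomb complexes none was called in either direction in limma, and 5 had an adjusted p under 0.05 with less than a 2-fold difference, where 26.8% of all tested genes had an adjusted p under 0.05. At an unadjusted p under 0.05, 4 were higher and 4 lower. Their median was 0.20, and -0.91 on the oocyte scale, where 0 were called higher and 12 lower. The most abundant was RBBP7, a histone-binding subunit, with 619 ± 11.6 TPM in summer and 374 ± 86.1 TPM in winter (SD, n = 4 each; 0.76, and -0.38 on the oocyte scale). CBX8, named for its difference, was the nearest to the 2-fold limit, at 0.95 (adjusted p = 0.0119) and -0.13 on the oocyte scale. Among the 11 tested KMT2 and KDM6 genes, whose products counter Polycomb, WDR5, a core subunit of the KMT2 complexes and also the most abundant, was called higher, with 250 ± 26.4 TPM in summer and 125 ± 35.1 TPM in winter (1.02, adjusted p = 0.00580; -0.11 on the oocyte scale), and none was called lower (2 at an unadjusted p under 0.05; median 0.13), while 0 were called higher and 6 lower on the oocyte scale.

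Among the 6 tested HOX cofactors, which bind DNA together with HOX proteins, MEIS1 was called lower, with 0, 1.233, 1.302 and 0.649 TPM in summer A, B, C and E, against 4.76, 4.60, 3.71 and 2.40 TPM in winter A, B, D and E (-1.48, adjusted p = 0.0131; -2.21 on the oocyte scale). PBX2, the most abundant over the 8 libraries, had 12.6, 38.8, 32.8 and 37.7 TPM in summer A, B, C and E, against 55.1, 43.2, 49.1 and 42.7 TPM in winter A, B, D and E. All its summer values lay below winter, but the difference did not pass (-0.73, adjusted p = 0.0996; -1.85 on the oocyte scale). PBX3 had 35.0 ± 8.83 TPM in summer and 32.0 ± 2.23 TPM in winter (SD, n = 4 each; 0.09, adjusted p = 0.753; -1.02 on the oocyte scale). No cofactor was called higher (0 at an unadjusted p under 0.05), and the median was -0.22, and -1.28 on the oocyte scale.

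The partners of PAX, LHX and related homeobox proteins included 3 called higher of 13 tested and none lower (1 at an unadjusted p under 0.05; median 0.27), where 4.40% and 5.17% of all tested genes were. Among them 0 were called higher and 4 lower on the oocyte scale, with a median of -0.78. EYA1, a transcriptional coactivator of organ development, averaged 23.0 ± 2.73 TPM in summer and 9.99 ± 3.50 TPM in winter (SD, n = 4 each; 1.18, adjusted p = 0.0106; 0.12 on the oocyte scale). LMO3 (1.06) and LMO1 (1.02), which encode LIM-only proteins, were the others, each at -0.03 on the oocyte scale. LDB1, the most abundant partner and the cofactor of LIM-homeodomain proteins, was with 106 ± 17.5 TPM in summer and 94.97 ± 10.2 TPM in winter (0.15, adjusted p = 0.453; -0.98 on the oocyte scale).

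Of 36 tested homeobox genes outside these families, 12 were called higher and none lower (0 at an unadjusted p under 0.05), with a median of 0.87, where 4.40% and 5.17% of all tested genes were called. With that scaling to the oocyte markers, 0 were called higher and 6 lower, with a median of -0.21. The 4 called genes with the smallest p were CDX1, CDX2, NOBOX and CUX2. NOBOX, an oocyte-specific factor needed for follicle growth that is also in the list of oocyte markers, averaged 147 ± 12.2 TPM in summer and 67.1 ± 28.8 TPM in winter (SD, n = 4 each; 1.19, adjusted p = 0.00743; 0.07 on the oocyte scale). UNCX, a gene of somite and neuron patterning, was the most abundant, with 335 ± 74.3 TPM in summer and 174 ± 43.4 TPM in winter (0.95, under 2-fold, and -0.19 on the oocyte scale).

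Some of these values carry an annotation limit. In RefSeq (ARS-UCD2.0), which was matched for 98 of the 99 genes, 29 overlapped another annotated gene, 16 of them HOX genes. Among the called genes these were HOXB3, LHX2 and PAX8. Overlapping transcripts and antisense RNA were not separated, so the levels of these genes are uncertain.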

How the data were processed

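The authors deposited TPM values for 26804 genes in 8 oocyte libraries. CLC Genomics Workbench is given in the study's methods, but Bowtie2 2.2.2, DESeq2 and the ARS-UCD1.2 build in the submitters' processing notes, and the source of the table was not settled. Every library summed to the same total, and TPM keeps no depth.

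Groups came from sample titles. Genes with zFPKM above -3 in all 4 libraries of a season (13379) were tested with limma 3.58.1 (R 4.3.3, trend) for a season term on log2(TPM + 1). Calls needed a Benjamini-Hochberg p under 0.05 and a difference of 1 or more in size. The pseudocount understates changes of low genes. The test was also run on simulated independent values with known changes. Those values lacked the shift in marker sums seen between the seasons, so that check says nothing about its effect on the calls.

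The genes and lists were chosen with earlier results of these data known. Named were called members, the 3 most abundant of each family at 1 TPM, non-overlapping members, VSX1, TLX3 and POU5F1, and of other lists up to 4 called members and the most abundant; low-level paralogs and neighbours, PBX3, CBX8, MSLN and OVGP1 were named after their values were seen. Alternatives covered pseudocount, filter, scaling, moderation, weights, the library letter and each library left out. Some genes within the rule are not reported here.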

Additional observations from a re-analysis of the deposited data

Results flagged for a closer look

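In 82 groups of 4 libraries (39 named genes and the summed levels, each in both seasons), 6 held a library far from the others by Dixon's criterion, where chance alone gives about 1 in 20. In summer C, HOXD3 stood at 35.5 TPM (15.7 to 18.6 in the other summer libraries), TLX3 at 17.7 TPM (6.30 to 8.11), the HOX sum at 364.8 TPM (232 to 255) and PAX3 at 20.4 TPM (28.1 to 29.6). In summer A, IRX5 stood at 18.9 TPM (11.0 to 11.4). In winter B, HOXD1 stood at 12.9 TPM (3.51 to 4.68 in the other winter libraries).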

How the results depend on the processing

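HOX genes called higher numbered 3, against 1 without a filter on low values, 5 with quantile normalization, 0 scaled to oocyte markers, and 1 to 4 with 1 library left out. HOX genes called lower numbered 0, against 3 scaled to oocyte markers. Other-family genes called higher numbered 7, against 12 with array weights, 0 scaled to oocyte markers, and 4 to 12 with 1 library left out (4 without winter E, 12 without summer A or winter B). Those called lower numbered 2, against 1 without a filter, 1 with quantile normalization, 6 scaled to oocyte markers, and 1 to 2 with 1 library left out. In a fit with a replicate block for the letter, called higher were 1 HOX gene (HOXD9) and 0 others, and lower 1 other (PAX8), where 1.34% and 2.21% of all genes were. In that limma fit the adjusted p was 0.0525 for LHX2, 0.0569 for TLX3, 0.0598 for MSX1 and 0.0771 for VSX1. Summer C and winter D add nothing to its season differences, since their letters occur in 1 season only. No source used here says whether the letters mark the same cows. Deviations of same-letter libraries correlated at 0.049 (A), 0.138 (B) and 0.201 (E), each the highest for its library. Summer C and winter D correlated at 0.055, also the highest for both. Any pairing of this kind is left out of the main fit. The causes of the shifts in calls were not tested. Scaling to oocyte markers reversed HOXA4 (-0.39), HOXA7 (-0.49), HOXB7 (-0.13), HOXC6 (-0.59), HOXC9 (-0.41), HOXC13 (-0.09), HOXD3 (-0.29), DLX4 (-0.33), DLX6 (-0.21), PITX1 (-0.31), IRX4 (-0.10), LHX2 (-0.06), LHX4 (-0.32), PAX3 (-0.13), PAX9 (-0.12), POU2F1 (-0.68), POU5F1 (-0.12) and POU4F3 (-0.26). HOXA3 was 0.05 with array weights, and IRX1 was 0.14 with quantile normalization and -0.30 to 0.03 with 1 library left out. Counts at 1 TPM moved to at most 23 HOX genes and 33 others, and at least 17 and 24. TPM gives no depth, so the precision of genes near 1 TPM is unknown.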
